A study of Mus musculus with 32 samples.

Results

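Huntingtin (Htt) and 7 genes, called its partners here, were followed in the striatum of 32 mice. The 7 encode proteins known to bind huntingtin or, for Hip1r, a relative of Hip1. The 8 genes were taken by symbol: Htt, Hap1, Hip1, Hip1r, F8a, Pacsin1, Zdhhc17 and Optn. They are 8 of the 54532 genes in the count table, and all 8 were among the 16610 genes that passed the filter on low counts. They were chosen for their known roles, with earlier results of these data known.

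Huntingtin is a very large scaffold protein that links vesicles, motor proteins and endocytic adaptors, and its polyglutamine tract is encoded in exon 1. In Huntington's disease a CAG repeat in that exon is expanded, and the spiny projection neurons of the striatum are the cells that suffer most. The partners hold different roles around this scaffold. Hap1 (huntingtin-associated protein 1) couples cargo to microtubule motors, Hip1 and Hip1r (huntingtin-interacting protein 1 and its relative) join clathrin coats to actin, and Pacsin1 is an F-BAR protein that bends membranes at the synapse. F8a encodes HAP40, which folds with huntingtin into a stable complex. Zdhhc17 encodes the palmitoyltransferase HIP14, for which huntingtin is both partner and substrate, and Optn encodes optineurin, an adaptor in vesicle traffic and selective autophagy.

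The mice were 6 months old and fell into 4 genotype groups of 8. Wild-type and Msh3-/- mice lack the disease allele, and zQ175 and zQ175:Msh3-/- mice carry a highly expanded CAG repeat knocked into the endogenous mouse Htt gene. Msh3-/- mice lack functional MSH3, a mismatch repair protein needed for the repeat to lengthen in somatic cells, after CRISPR editing with guides in exons 3 and 8. All groups were bred as littermates on a C57BL/6J background, with 4 males and 4 females in each group except zQ175:Msh3-/-, which had 5 males and 3 females. The design asks how the expanded allele changes striatal RNA and whether loss of MSH3 alters that change. The mutation lies in Htt in every cell and is present from conception, and the read counts do not separate the expanded from the normal allele.

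The stretch of Htt that holds the repeat is shown as it reads in the mouse reference, because the disease allele is altered there. It runs along the plus strand from the start codon at chr5:34761907-34762038 (GRCm38), inside exon 1 and the coding sequence of transcript Htt-201, and was read from the GENCODE M21 transcript. Capitals mark the longest unbroken run of glutamine codons in the wild-type mouse allele. Single glutamine codons further along are left in lower case.
Htt exon 1: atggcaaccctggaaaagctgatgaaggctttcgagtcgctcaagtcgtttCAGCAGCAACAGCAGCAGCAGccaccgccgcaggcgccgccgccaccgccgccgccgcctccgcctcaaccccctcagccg
The tract holds 7 glutamine codons, of which 6 are CAG, from base 34761958 to base 34761978 of chromosome 5. The runs of ccg and related codons that follow encode the proline-rich stretch of the mouse allele. The paper describes a human-specific proline-rich region as the target of an antibody that it used on zQ175 tissue. The expanded allele, whose sequence is not shown here, may therefore differ from this stretch in more than repeat length. Exon 1 spans bases 34761744 to 34762109, 366 of the 13215 bases of this transcript, or 2.77%. Htt-201 has 67 exons, so nearly all reads counted on Htt come from sequence beyond the repeat. Intron 1 (34762110 to 34782741) contains no base of any annotated exon. If reads were counted on exons, the intron 1 reads of transcripts that end within it were therefore not analysed here. Exon 1 reads of such transcripts would still be counted on Htt.

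The total count on genes ran from 12359347 to 25030335 per mouse. Nothing in the labels separates litters or preparation days, so p-values measure the spread between these mice. Values are counts per 1000000 after TMM normalisation (CPM), a scaling that corrects for depth and composition, or TPM, the same kind of scale corrected for transcript length, where genes of different length are compared. Msh3 itself was between 10.4 and 14.2 CPM in the 16 mice labelled as lacking it and between 22.8 and 27.5 CPM in the other 16. These ranges did not overlap, but a whole-gene count does not look at reads in the edited exons and cannot by itself tell a null from a heterozygous mouse. The 7 markers of spiny projection neurons, summed, were 5729 to 7340 CPM in the 2 groups without the expanded allele and 3180 to 4184 CPM in the 2 groups with it, and all 7 fell with zQ175 in both Msh3 genotypes. In bulk tissue, fewer cells of a type and less RNA per cell cannot be told apart. Tissue next to the striatum entered to a varying degree: summed choroid plexus markers ranged from 19.2 to 2914 CPM, were at 800 CPM or more in 7 mice spread over all 4 groups, and summed cortical markers ranged from 33.0 to 623 CPM.

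Per unit of length, the 8 genes spanned a wide range of levels and kept nearly the same order in every mouse. Pacsin1 was the most abundant, with a mean of 196 TPM over the 32 mice and a range of 162 to 233. Hap1 followed at 106 TPM (71.3 to 156) and Zdhhc17 at 80.5 TPM (73.8 to 86.9). Hap1 exceeded Zdhhc17 in 30 of 32 mice, the exceptions being 2 wild-type mice, and their ranges overlapped. Hip1r stood at 42.0 TPM, Htt at 30.4 and Hip1 at 26.6, and Htt exceeded Hip1 in 31 of 32 mice with overlapping ranges. F8a at 14.7 TPM and Optn at 10.4 TPM were the lowest, and F8a was above Optn in all 32 mice although their overall ranges overlapped. The other neighbouring pairs, Pacsin1 and Hap1, Zdhhc17 and Hip1r, Hip1r and Htt, and Hip1 and F8a, did not overlap in any mouse. At these levels the raw counts behind each value ran from 134 reads for Optn to 7238 for Pacsin1, with Htt between 1862 and 3937 reads per mouse.

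**Figure D1:**
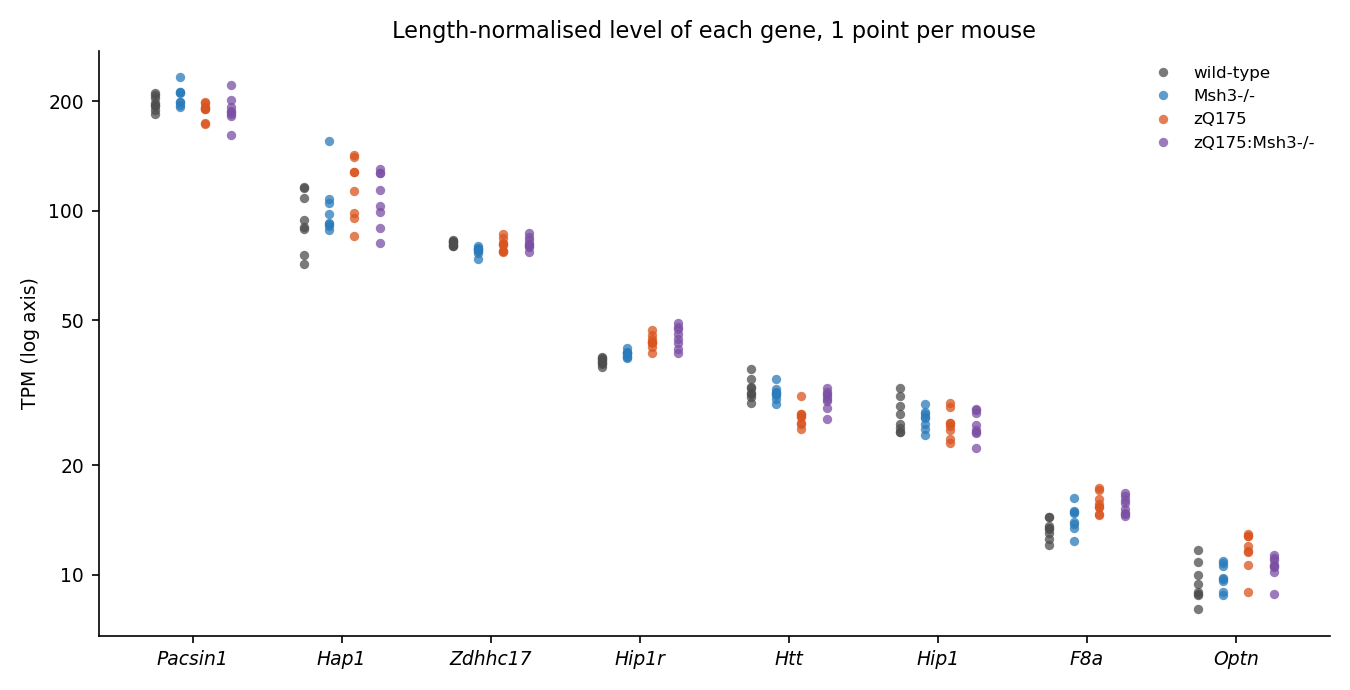
TPM (log axis) of the 8 genes in order of their mean, with 1 point per mouse coloured by genotype. Pacsin1 lies between 162 and 233 TPM and Optn between 8.05 and 13.0, and Hap1 shows the widest scatter within each genotype.

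Htt mRNA was lower in zQ175 striatum than in wild-type striatum in every mouse. In wild-type mice it ran from 152 to 189.7 CPM with a median of 170.0, in Msh3-/- mice from 154 to 176 with a median of 167, in zQ175 mice from 129 to 147 with a median of 137, and in zQ175:Msh3-/- mice from 132 to 157 with a median of 149. The 8 zQ175 mice all lay below the 8 wild-type mice, and this separation without overlap was shared by 6.63% of all genes tested. The means were 136.5 ± 6.54 CPM in zQ175 and 170.3 ± 11.8 CPM in wild-type mice (SD, n = 8 each), so zQ175 striatum held 80.1% of the wild-type level. On the log2 scale the difference was -0.32 (SE 0.0390, adjusted p = 4.76e-08, edgeR's quasi-likelihood test over all genes). The exact two-sided permutation test gave p = 0.000155, the smallest that 8 against 8 mice can give. Htt passed both thresholds, an adjusted p under 0.05 and a fold of at least 1.2, which 11.6% of the genes tested passed in this comparison and 6.89% passed as lower. It was the only one of the 8 genes to do so. Leaving out any 1 of the 16 mice kept the call, with log2 fold changes between -0.34 and -0.30, and the change was -0.29 in males alone and -0.35 in females alone.

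**Figure D2:**
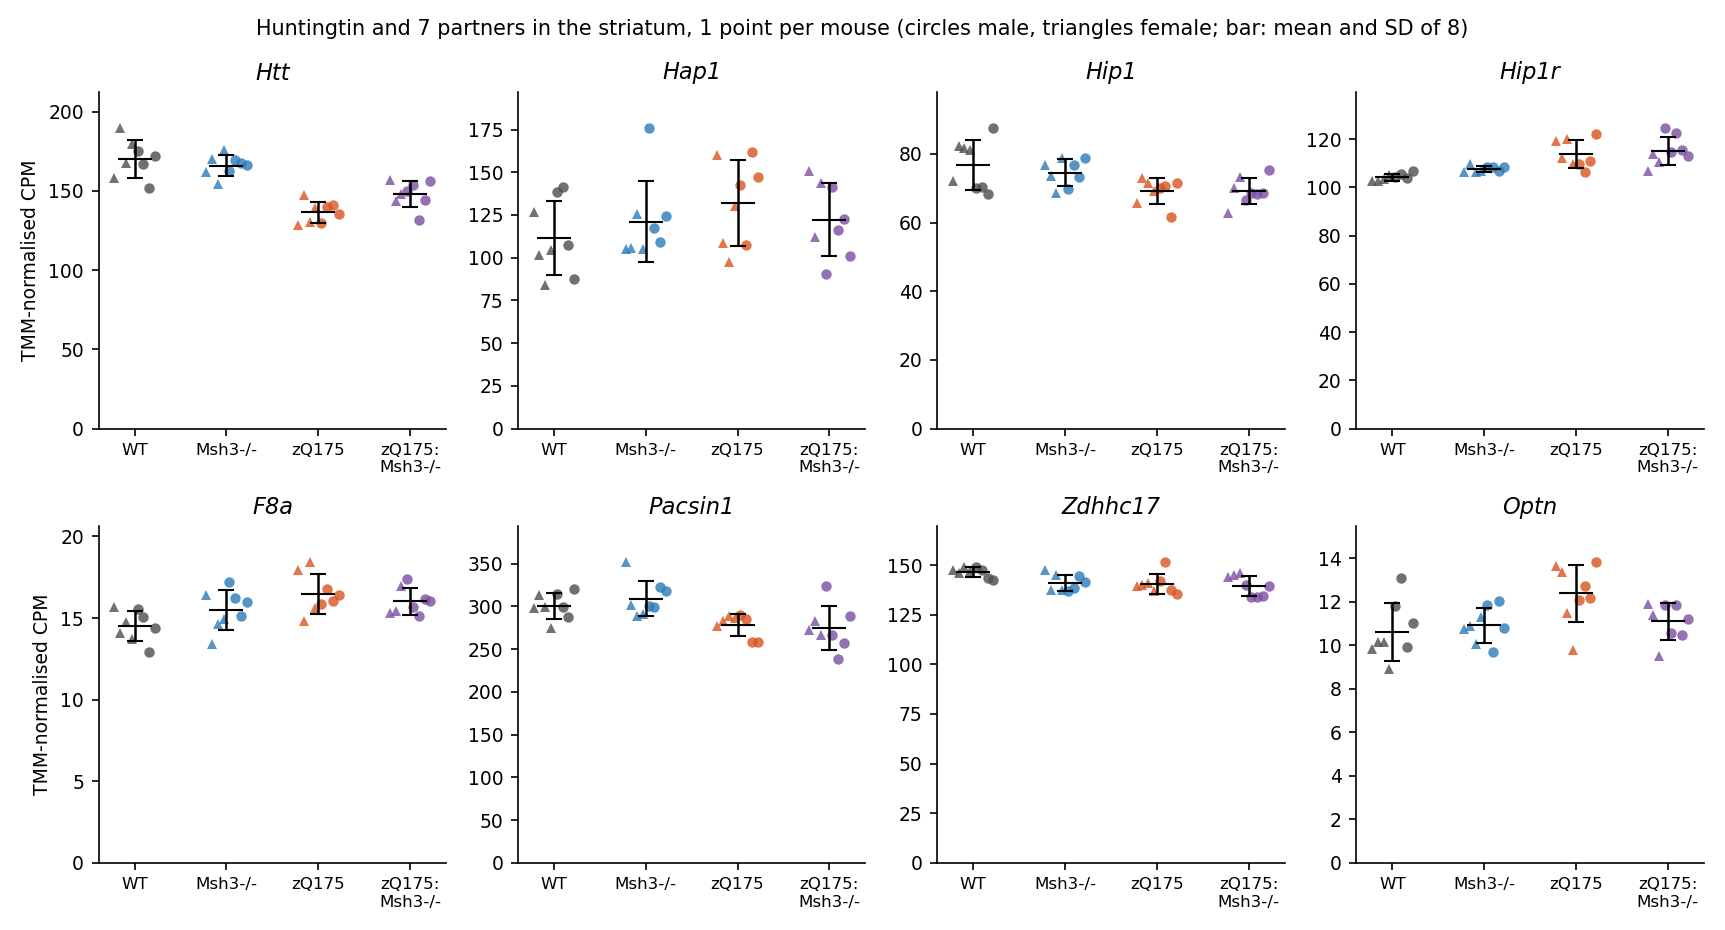
TMM-normalised CPM of each of the 8 genes by genotype, with 1 point per mouse (circles male, triangles female) and bars for the mean and SD of 8 mice. All 8 zQ175 mice lie below all 8 wild-type mice for Htt, whereas for each of the other 7 genes the same 2 groups overlap.

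The size of the Htt difference depended on the scale. In the deposited TPM table Htt was 29.6 to 36.8 TPM in wild-type and 25.1 to 31.0 TPM in zQ175 mice, so that the groups overlapped. On the log2(TPM + 0.1) scale the zQ175 difference was -0.26 (adjusted p = 6.40e-05, limma), short of 1.2-fold. The median of all genes also sat higher on that scale, at a log2 change of 0.07 against 0.01 for the counts. Relative to the median gene, Htt changed by -0.32 in TPM and by -0.33 in counts.

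In mice lacking MSH3, Htt was also lower with the expanded allele, but by less than 1.2-fold. The mean was 148 ± 8.30 CPM in zQ175:Msh3-/- and 166 ± 6.52 CPM in Msh3-/- mice (SD, n = 8 each), or 89.2% of the Msh3-/- level. The log2 fold change was -0.17 (SE 0.0390, edgeR adjusted p = 0.00160, exact permutation p = 0.000466), and 6 of 8 zQ175:Msh3-/- mice lay below all Msh3-/- mice. In the TPM table this difference was -0.06 (limma adjusted p = 0.387), or -0.14 relative to the median gene, so it did not pass the test for Htt on that scale. Against wild-type mice, zQ175:Msh3-/- mice held 86.9% of the Htt level, a log2 fold change of -0.20 (edgeR adjusted p = 0.000129), and 5 of 8 lay below every wild-type mouse. On the log2(TPM + 0.1) scale that Htt difference was -0.10 (limma adjusted p = 0.111) and did not pass.

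Between the 2 groups with the expanded allele, Htt was higher in zQ175:Msh3-/- than in zQ175 striatum by 0.12 on the log2 scale (SE 0.0391). Of the 8 zQ175:Msh3-/- mice, 5 lay above every zQ175 mouse. The unadjusted edgeR p was 0.00485 and the exact permutation p was 0.0107, but over all genes the adjusted p was 0.999, and the difference did not pass the test. The interaction, which asks whether the zQ175 effect on Htt differs between Msh3 genotypes, was 0.15 (SE 0.0551, unadjusted p = 0.00814, edgeR adjusted p = 0.999). In that test none of the 8 genes passed and neither did any other of the 16610 (0.00%), by edgeR or by DESeq2, and 4.44% of genes had an unadjusted p under 0.05, Htt alone among the 8. Loss of MSH3 without the expanded allele left Htt at 97.5% of the wild-type level, a log2 change of -0.04 (SE 0.0389, edgeR adjusted p = 0.962).

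Within each genotype, the Htt value of a mouse followed that of other very long transcripts. This relation was looked for after the Htt values had been seen. For each mouse, the level of long transcripts was taken as the median log2 CPM deviation of 379 genes whose longest coding transcript has at least 10000 bases. Its range was -0.07 to 0.11 in wild-type mice and -0.09 to 0.04 in Msh3-/- mice, and with the expanded allele -0.08 to 0.13 in zQ175 mice and -0.06 to 0.09 in those also lacking MSH3. Pearson's r between that level and Htt was 0.745 over the wild-type mice and 0.794 over the Msh3-/- mice, and with the expanded allele it was 0.926 over the zQ175 mice and 0.803 over those also lacking MSH3. Over deviations from the genotype means of the 32 mice r was 0.793 and Spearman's rho 0.745 (permutation within genotypes, p = 1e-05, the smallest that 100000 permutations can give, and p = 3e-05), and r was 0.736 without the 2 mice farthest from the median. Among the 8 genes, 8 such relations were computed, and after adjustment over them p was 8e-05 and 0.00024 for Htt and 0.0129 and 0.00868 for Hip1 (r = 0.544, rho = 0.569, and r = 0.502 without 2 mice). For the other 6 genes the adjusted p was at least 0.0912.

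**Figure D3:**
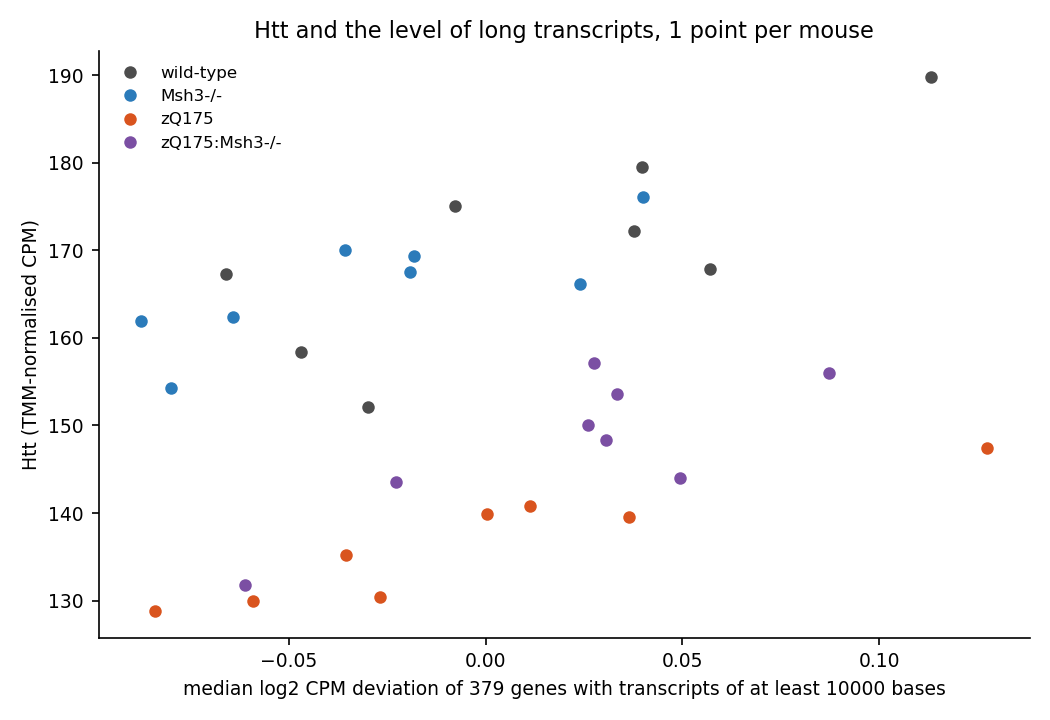
Htt in TMM-normalised CPM against the median log2 CPM deviation of 379 genes with coding transcripts of at least 10000 bases, with 1 point per mouse coloured by genotype. Htt climbs with the long-transcript level in all 4 groups, and at a given level the zQ175 mice lie below the wild-type mice.

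The 379 long-transcript genes went both ways between groups, with a median log2 fold change of -0.01 for zQ175 against wild-type, 0.06 for zQ175:Msh3-/- against Msh3-/- and 0.04 for zQ175:Msh3-/- against zQ175. Of these genes, 26 had a lower fold change than Htt between zQ175 and wild-type mice, and 342 of 379 had a lower one than Htt between zQ175:Msh3-/- and zQ175 mice. With the long-transcript level as a covariate, the Htt log2 change was -0.30 for zQ175 against wild-type (edgeR adjusted p = 9.88e-11) and -0.22 for zQ175:Msh3-/- against Msh3-/- (adjusted p = 2.54e-07). For zQ175:Msh3-/- against zQ175, the Htt difference with that covariate was 0.09, where it was 0.12 without it, and the interaction was 0.08 against 0.15. The part of RNA quality or tissue content in the Htt values was not tested.

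F8a, the gene for huntingtin's partner HAP40, was higher in zQ175 striatum while Htt was lower. It ran from 12.9 to 15.7 CPM in wild-type mice with a median of 14.6, from 13.4 to 17.2 in Msh3-/- mice with a median of 15.5, from 14.8 to 18.4 in zQ175 mice with a median of 16.2, and from 15.1 to 17.4 in zQ175:Msh3-/- mice with a median of 15.9. The zQ175 and wild-type groups overlapped, but 6 of 8 zQ175 mice lay above every wild-type mouse. The zQ175 difference was 0.18 on the log2 scale (SE 0.0519, edgeR adjusted p = 0.00713, exact permutation p = 0.00218), a level of 114% that fell short of 1.2-fold. For zQ175:Msh3-/- against Msh3-/- it was 0.05 (SE 0.0523, exact permutation p = 0.316), and the interaction for F8a was -0.13 (unadjusted p = 0.0805). Against wild-type mice, F8a in zQ175:Msh3-/- mice differed by 0.14 (edgeR adjusted p = 0.0410, under 0.05 in 8 of the 16 fits without 1 mouse). Msh3-/- against wild-type gave 0.09 (edgeR adjusted p = 0.926). At 183 to 425 reads per mouse, F8a had a coefficient of variation of 5.06% to 7.83% within groups, close to the 6.03% to 6.44% that counting reads alone would give.

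As a description of the pair, with no test, the ratio of F8a to Htt within each mouse in TPM was 0.413 ± 0.0368 in wild-type mice and 0.583 ± 0.0688 in zQ175 mice, and in the mice lacking MSH3 it was 0.454 ± 0.0407 without and 0.513 ± 0.0341 with the expanded allele (SD, n = 8 each). The lowest zQ175 value, 0.470, lay just above the highest wild-type value, 0.459. The ratios of Hip1r and of Zdhhc17 to Htt also separated these 2 groups, and in the mice lacking MSH3 the F8a ratio overlapped, at 0.391 to 0.502 without and 0.462 to 0.552 with the expanded allele. Htt, the denominator, was itself lower in zQ175 mice. Because those other ratios separated the groups too, the separation is not particular to F8a and Htt. The share of all genes whose ratio to Htt does so was not computed. The F8a ratio was formed after the values of both genes had been seen. F8a is a gene without introns on the X chromosome, and its difference between males and females was 0.02 on the log2 scale (edgeR adjusted p = 0.900).

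Hap1, the motor adaptor, varied more between mice of the same genotype than it did between genotypes. It ran from 84.3 to 141 CPM in wild-type mice with a median of 106, from 105 to 176 in Msh3-/- mice with a median of 113, from 97.5 to 162 in zQ175 mice with a median of 136, and from 90.7 to 151 in zQ175:Msh3-/- mice with a median of 119.5. All 4 groups overlapped widely. The coefficient of variation was 17.6% to 19.6% within groups, whereas counting reads alone would give 2.16% to 2.33%. The zQ175 difference was 0.24 on the log2 scale with an SE of 0.133 (edgeR adjusted p = 0.194), larger in size than that of any of the other 6 partners but not past the test. In the Msh3-/- background it was 0.02 (SE 0.134, edgeR adjusted p = 0.949).

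The mice with high Hap1 were also those with high levels of Baiap3, Zcchc12 and Arhgap6. Over deviations from the genotype means of the 32 mice, Pearson's r with Hap1 was 0.92 for Zcchc12, 0.92 for Baiap3 and 0.90 for Arhgap6, the highest among 16609 genes compared. Between zQ175 and wild-type mice the log2 fold changes of Zcchc12, Baiap3 and Arhgap6 were -0.04, 0.45 and 0.06. Against the summed log2 level of choroid plexus markers, Hap1 gave r = 0.435 and rho = 0.459 over the same deviations (permutation p = 0.0177 and 0.0113, adjusted over 72 relations with marker lists 0.133 and 0.117), and r = 0.420 without the 2 mice farthest from the median. Against 4 cortical markers it gave r = -0.440 and rho = -0.499 (permutation p = 0.0172 and 0.00607, adjusted 0.133 and 0.0874), and r = -0.479 without 2 mice. Against oligodendrocyte precursor markers Hap1 gave r = 0.423 and rho = 0.406 (permutation p = 0.0244 and 0.0307, adjusted 0.146 and 0.158), and r = 0.401 without 2 mice. None of these relations passed. What cell content or other tissue in the dissection contributed to Hap1 was not tested.

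Hip1 and Hip1r, the 2 clathrin and actin adaptors, moved in opposite directions and by small amounts. Hip1 ran from 68.4 to 87.5 CPM in wild-type mice with a median of 76.6, from 68.7 to 78.9 in Msh3-/- mice with a median of 75.1, from 61.6 to 73.0 in zQ175 mice with a median of 70.4, and from 62.8 to 75.4 in zQ175:Msh3-/- mice with a median of 68.6. The groups overlapped, with 2 of 8 zQ175 mice below every wild-type mouse. Its log2 fold change was -0.15 for zQ175 against wild-type (SE 0.0462, edgeR adjusted p = 0.0155) and -0.11 for zQ175:Msh3-/- against Msh3-/- (SE 0.0465, adjusted p = 0.0931). Without the highest wild-type mouse, male 4 at 87.5 CPM, the zQ175 difference in Hip1 was -0.12 (edgeR adjusted p = 0.0513), and on the log2(TPM + 0.1) scale it was -0.08 (limma adjusted p = 0.366), so the adjusted p was above 0.05 in both cases.

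Hip1r ran from 103 to 107 CPM in wild-type mice with a median of 104, from 106 to 109 in Msh3-/- mice with a median of 108, from 106 to 122 in zQ175 mice with a median of 112, and from 107 to 125 in zQ175:Msh3-/- mice with a median of 114. In both groups with the expanded allele, 7 of 8 mice lay above every mouse of the matching group without it. Hip1r differed by 0.12 on the log2 scale for zQ175 against wild-type (SE 0.0294, edgeR adjusted p = 0.00137) and by 0.10 for zQ175:Msh3-/- against Msh3-/- (SE 0.0295, adjusted p = 0.0136), both short of 1.2-fold. The spread was also unequal: the coefficient of variation of Hip1r was 1.39% in wild-type and 1.14% in Msh3-/- mice, below the 2.35% and 2.45% that counting reads would give, and 5.15% and 5.12% in zQ175 and zQ175:Msh3-/- mice. Hip1r in Msh3-/- mice was 103% of wild-type, which gave p = 0.000777 in the exact permutation test but an adjusted p of 0.926 in edgeR. The last 918 of the 7369 exonic bases of Hip1r overlap Vps37b on the opposite strand, 12.9% of its 75-base words occur in other genes, and whether counting used strand is not given in the sources used here, so its counts are uncertain to that extent.

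Pacsin1, the most abundant of the 8 genes, was lower with the expanded allele in mice lacking MSH3 by its adjusted p, though by less than 1.2-fold. It ran from 274 to 320.0 CPM in wild-type mice with a median of 299, from 289 to 352 in Msh3-/- mice with a median of 301, from 258 to 289.9 in zQ175 mice with a median of 284, and from 238 to 324 in zQ175:Msh3-/- mice with a median of 269.5. In the Msh3-/- background 7 of 8 mice with the expanded allele lay below every mouse without it, the exception being a male at 324 CPM. The log2 fold change was -0.17 in that comparison (SE 0.0462, edgeR adjusted p = 0.00546) and -0.11 between zQ175 and wild-type mice (SE 0.0462, adjusted p = 0.0708, exact permutation p = 0.00808). On the log2(TPM + 0.1) scale these 2 differences were -0.12 (limma adjusted p = 0.0441) and -0.07 (adjusted p = 0.308). Without wild-type female 4, the lowest wild-type mouse for Pacsin1, the zQ175 effect had an adjusted p of 0.0403.

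Pacsin1 varied with cortical markers from mouse to mouse. Over deviations from the genotype means of the 32 mice, Pearson's r between Pacsin1 and the summed log2 level of 4 cortical markers was 0.560 and Spearman's rho was 0.584 (permutation within genotypes, p = 0.00061 and p = 0.001), and r was 0.541 without the 2 mice farthest from the median. Adjusted over the 72 relations between the 8 genes and 9 marker lists these were 0.0439 and 0.0475, and no other relation passed by both measures. The next was Optn with 5 astrocyte markers (r = 0.548, adjusted p = 0.058, rho = 0.569, adjusted p = 0.0475). No cortical marker passed the thresholds in any genotype comparison, but the median log2 fold change of the 4 was 0.61 for zQ175 against wild-type and 0.61 for zQ175:Msh3-/- against Msh3-/-, opposite in sign to the change of Pacsin1. What the cortical tissue contributed to the Pacsin1 counts was not tested.

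Zdhhc17 differed little between groups and between mice. It ran from 142 to 149 CPM in wild-type mice with a median of 147, from 137 to 147 in Msh3-/- mice with a median of 139.8, from 135 to 151 in zQ175 mice with a median of 139.8, and from 134 to 146 in zQ175:Msh3-/- mice with a median of 139. The wild-type mice were tightly grouped at the top of this range, and 7 of 8 zQ175 mice lay below all of them while the eighth, a male at 151 CPM, lay above all of them. The log2 fold change was -0.06 between zQ175 and wild-type mice (SE 0.0259, edgeR adjusted p = 0.0802), -0.07 between zQ175:Msh3-/- and wild-type mice (SE 0.0259, adjusted p = 0.0392) and -0.06 between Msh3-/- and wild-type mice (SE 0.0260, adjusted p = 0.926, exact permutation p = 0.00886). Between zQ175:Msh3-/- and Msh3-/- mice it was -0.02 (SE 0.0260, adjusted p = 0.726). The zQ175:Msh3-/- difference from wild-type kept an adjusted p under 0.05 in 5 of the 16 fits without 1 mouse, and on the log2(TPM + 0.1) scale it was 0.01 (limma adjusted p = 0.908), the opposite sign. Without the zQ175 male at 151 CPM, the zQ175 difference was -0.08 (adjusted p = 0.0213). On the log2(TPM + 0.1) scale Zdhhc17 gave -0.01 between zQ175 and wild-type mice (limma adjusted p = 0.813) and 0.07, the opposite sign, between zQ175:Msh3-/- and Msh3-/- mice (adjusted p = 0.0542).

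Optn, the least abundant, was higher in zQ175 striatum. It ran from 8.90 to 13.1 CPM in wild-type mice with a median of 10.2, from 9.70 to 12.04 in Msh3-/- mice with a median of 10.8, from 9.80 to 13.8 in zQ175 mice with a median of 12.4, and from 9.49 to 11.9 in zQ175:Msh3-/- mice with a median of 11.3. The groups overlapped, with 3 of 8 zQ175 mice above every wild-type mouse. The log2 fold change was 0.22 (SE 0.0703, edgeR adjusted p = 0.0168), a level of 117%, and it missed the fold threshold narrowly. Optn passed both thresholds on the log2(TPM + 0.1) scale (0.28, limma adjusted p = 0.00506), in females alone (0.31, adjusted p = 0.0483), without wild-type male 2, the highest wild-type mouse for Optn (0.27, adjusted p = 0.00293), and without the 7 mice with high choroid plexus markers, of which that male is a member (0.27, adjusted p = 0.0111). Most settings gave no pass. Optn passed in 4 of the 14 alternatives with the fold threshold, over which its log2 change ran from 0.15 to 0.31. It passed in 1 of the 16 fits without 1 mouse. In zQ175:Msh3-/- striatum Optn was at 102% of Msh3-/-, a log2 change of 0.03 (SE 0.0715, adjusted p = 0.822), and at 89.6% of zQ175, a change of -0.16 (unadjusted p = 0.0311, adjusted p = 0.999). With 134 to 322 reads per mouse, counting reads alone would give Optn a coefficient of variation of 6.97% to 7.66%, beside the 7.36% to 12.4% observed within groups.

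Between zQ175 and wild-type mice, 5 of the 8 genes had an adjusted p under 0.05 whatever the fold, against 26.5% of all genes tested. Of these, Htt and Hip1 were lower, as were 13.5% of all genes, and Hip1r, F8a and Optn were higher, as were 13.0%. Between zQ175:Msh3-/- and Msh3-/- mice, which share no animal with the former comparison, 3 did so, against 24.1% of all genes. Htt and Pacsin1 were lower, beside 12.3% of all genes, and Hip1r was higher, beside 11.8%. None of the 8 passed both thresholds there, against 10.6% of genes. Between zQ175:Msh3-/- and wild-type mice 6 had an adjusted p under 0.05, against 26.9% of genes. That count was 3 without wild-type female 2, where F8a, Pacsin1 and Zdhhc17 no longer passed, 3 without zQ175:Msh3-/- male 4, where the same 3 did not, and 3 without wild-type male 4, where Hip1, F8a and Pacsin1 did not, and it was 4 to 6 without any 1 of the other 13 mice. The median log2 fold change of the 8 genes was 0.03 for zQ175 against wild-type and 0.00 for zQ175:Msh3-/- against Msh3-/-, beside 0.01 in each case for all genes tested. In the comparisons of Msh3 genotypes, zQ175:Msh3-/- against zQ175 and Msh3-/- against wild-type, none of the 8 passed, and 1 gene of 16610, or 0.00602%, passed in each. With edgeR, 2 of the 8 had an unadjusted p under 0.05 in the former, Htt and Optn, against 3.70% of all genes, and 1 in the latter, Zdhhc17, against 5.09%, and DESeq2 called none of the 8 in either. Males and females did not differ past the thresholds in any of the 8 genes, against 0.169% of all genes tested, and none of the 8 had an unadjusted p under 0.05, against 9.31% of all genes.

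**Figure D4:**
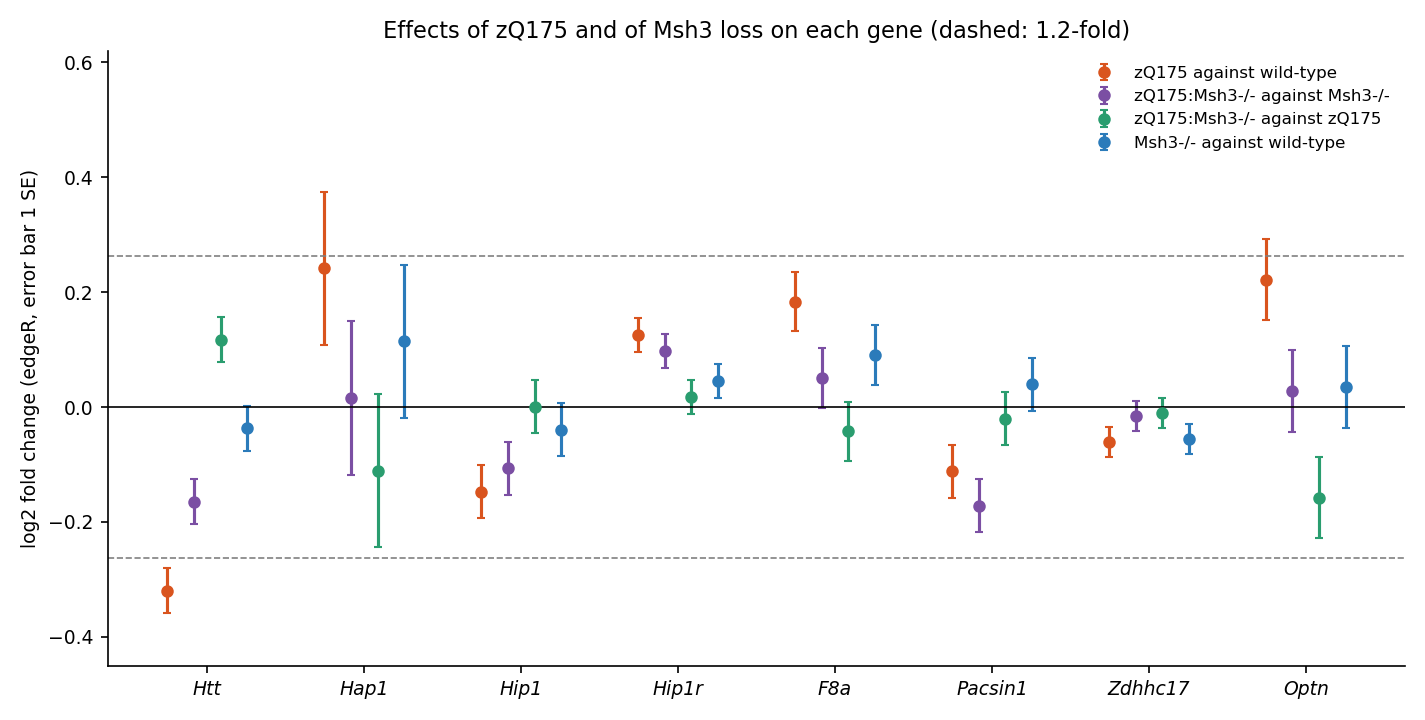
Log2 fold change of each of the 8 genes with its SE in 4 comparisons of genotypes (edgeR, 8 mice against 8), with dashed lines at 1.2-fold. Htt between zQ175 and wild-type mice, at -0.32, is the only value beyond the dashed lines.

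Further genes of huntingtin's interaction network were described through 6 lists with 66 genes in all, each measured and tested. Between zQ175 and wild-type mice 8 of the 66 passed both thresholds, 3 higher and 5 lower, or 12.1% beside 11.6% of all genes. Whatever the fold, an adjusted p under 0.05 was reached there, as higher and as lower, by 1 and 2 of the endocytosis genes, 4 and 2 of the microtubule genes, 1 and 2 of the palmitoylation genes, 3 and 2 of the nuclear partners, 3 and 3 of the autophagy genes and 1 and 4 of the modifiers described next, against 26.5% of all genes. Between zQ175:Msh3-/- and Msh3-/- mice 8 passed both thresholds, 2 higher and 6 lower, or 12.1% beside 10.6% of all genes, and in the 2 comparisons of Msh3 genotypes and in the interaction none did.

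Of 13 genes of endocytosis and vesicle traffic, which include the clathrin chains, 2 subunits of the AP2 adaptor, dynamin 1 and 3 Rab GTPases, 1 fell and none rose, and the median log2 fold change was -0.01. The gene that fell was Itpr1, the IP3 receptor of the endoplasmic reticulum, which mutant huntingtin binds and which spiny neurons express strongly. It dropped from 1480 ± 129 to 906 ± 75.6 CPM (SD, n = 8 each) without overlap, a log2 fold change of -0.71 (edgeR adjusted p = 6.22e-13), and fell by 0.57 in the Msh3-/- background.

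Among 13 genes of microtubule transport, with dynein, dynactin and kinesin subunits, 1 rose and none fell, and the median was 0.07. The gene that rose was Ahi1, a ciliary and vesicle protein that forms a stable complex with Hap1. It went from 203 ± 10.0 to 256 ± 14.3 CPM without overlap, a log2 fold change of 0.33 (edgeR adjusted p = 2.28e-06), and it was 0.27 in the Msh3-/- background (adjusted p = 7.54e-05). The latter call was lost when any of 6 mice was left out in turn and on the TPM scale (0.26). It was kept in 10 of the 14 alternatives with the fold threshold, over which the log2 change ran from 0.14 to 0.43.

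Of 7 genes around palmitoylation, Dlg4 fell and none rose. Dlg4 encodes PSD-95, the scaffold of excitatory synapses and a substrate of HIP14, and it went from 874 ± 47.0 to 711 ± 39.5 CPM without overlap (log2 fold change -0.30, edgeR adjusted p = 9.05e-08), with -0.24 on the TPM scale, short of 1.2-fold. Zdhhc13, the paralog of Zdhhc17 that encodes HIP14L, passed both thresholds in comparisons of zQ175:Msh3-/- mice, with -0.31 against Msh3-/- (adjusted p = 0.000293) and -0.29 against wild-type mice (adjusted p = 0.000484), where zQ175 against wild-type gave -0.23 (adjusted p = 0.00447). The difference between these effects did not pass the interaction test. Zdhhc13 was named after its values were seen.

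Among 12 nuclear partners, which bind huntingtin's amino-terminal fragments in transcription and splicing, 1 rose and 1, Taf4, fell, and the median was 0.03. Taf4, a subunit of the general factor TFIID, had a log2 fold change of -0.30 (edgeR adjusted p = 5.50e-05), -0.24 on the TPM scale and -0.25 in the Msh3-/- background, the last pair short of 1.2-fold. Of 10 genes of ubiquitin-linked and selective autophagy that work with optineurin, none passed both thresholds in any comparison, although 6 had an adjusted p under 0.05 between zQ175 and wild-type mice, 3 higher and 3 lower.

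Of 11 kinases, phosphatases, proteases and small binders that act on huntingtin, 1 rose and 2 fell, and the median was -0.16. Rasd2, the striatal GTPase Rhes, went from 774 ± 82.2 to 499 ± 55.3 CPM (log2 fold change -0.63, edgeR adjusted p = 2.86e-09), and Ppp3ca, the catalytic subunit of calcineurin, which dephosphorylates huntingtin, fell by 0.58 (adjusted p = 1.04e-14). Both were without overlap and fell in the Msh3-/- background as well, by 0.57 and 0.49. Sgk1, a huntingtin kinase, passed between zQ175:Msh3-/- and Msh3-/- mice at -0.57 (edgeR adjusted p = 0.00167), where zQ175 against wild-type gave -0.24 (adjusted p = 0.180) and Msh3-/- against wild-type 0.30 (adjusted p = 0.926), and the interaction for Sgk1 was -0.32 (edgeR adjusted p = 0.999). Casp6 passed between zQ175:Msh3-/- and wild-type mice at -0.36 (edgeR adjusted p = 0.0367, lost when any of 10 mice was left out), beside -0.23 for zQ175 against wild-type and -0.26 for zQ175:Msh3-/- against Msh3-/-, with an interaction of -0.03 (adjusted p = 0.999). Sgk1 and Casp6 were named after their values were seen. Dlg4, Itpr1, Ppp3ca and Rasd2 fell in the same comparisons as the spiny neuron markers above, and the part of cell content in these changes was not tested.

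**Figure D5:**
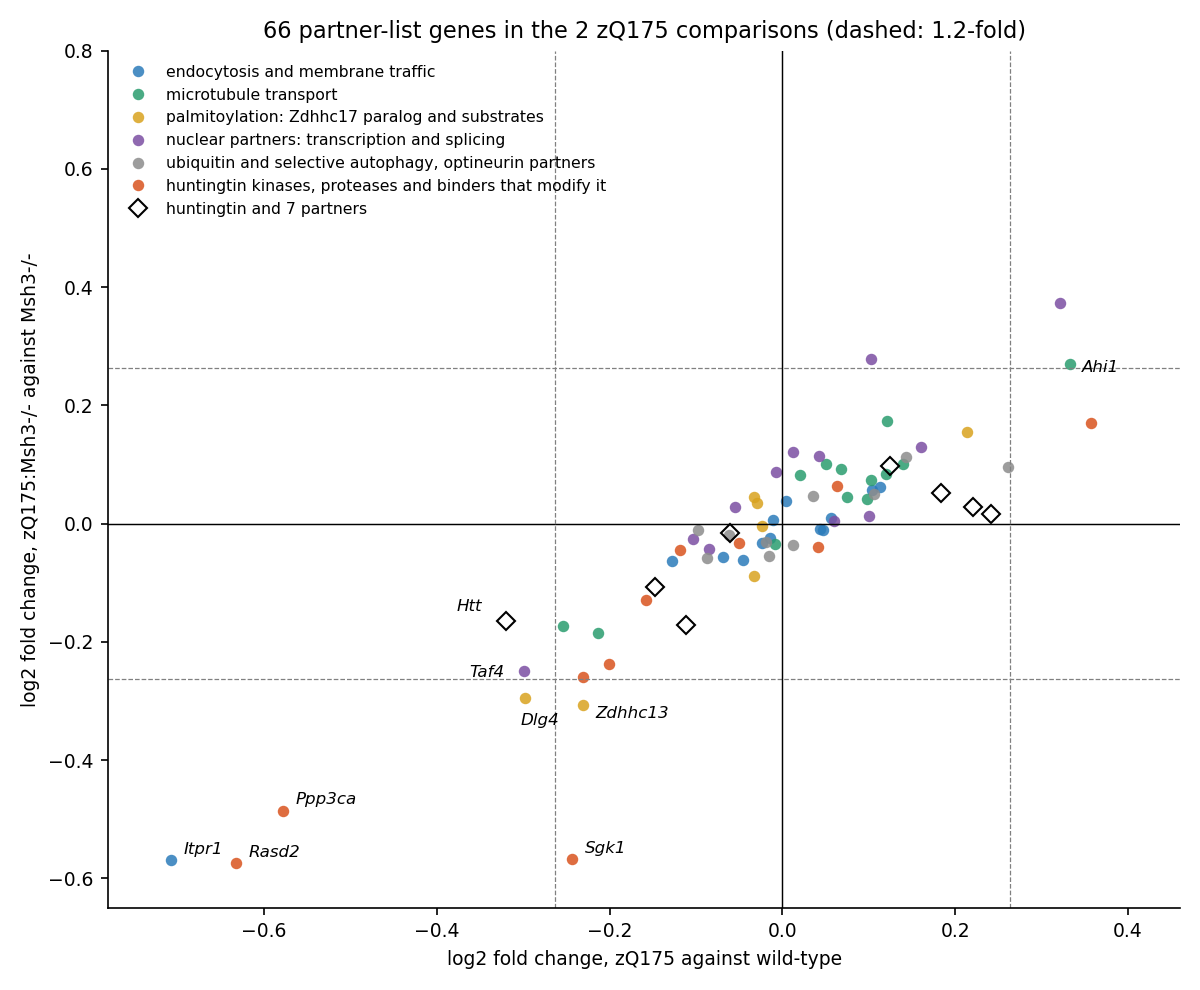
Log2 fold changes of 66 genes of 6 partner lists (coloured points) and of the 8 genes (open diamonds) for zQ175 against wild-type (x axis) and zQ175:Msh3-/- against Msh3-/- (y axis), 2 comparisons without a shared mouse, with dashed lines at 1.2-fold. Itpr1, Rasd2 and Ppp3ca lie farthest to the lower left, Ahi1 lies past the upper dashed lines on both, Sgk1 lies past the lower dashed line on the y axis and just inside it on the x axis, and Htt lies past the dashed line on the x axis alone.

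The genes whose level was most like that of each of the 8 across the 32 mice are given as a description, since depth, genotype and tissue content are shared by all. By log2 CPM, Htt was most like Hecw2 (r = 0.92), Ntrk3 (0.91) and Cacna1e (0.91), genes that themselves had log2 fold changes of -0.43, -0.47 and -0.37 between zQ175 and wild-type mice. By deviations from the genotype means it was most like Huwe1 (0.79), 4932438A13Rik (0.78) and Prrc2b (0.78), whose own zQ175 changes were 0.01, -0.05 and 0.03. Hap1 was most like Baiap3, Arhgap6 and Pnck (0.92, 0.89 and 0.87) by log2 CPM. Hip1 was most like Dusp11, Map7 and Rmnd5a (0.85, 0.83 and 0.81), and by deviations Dusp11, Ubr2 and Acap2 (0.86, 0.79 and 0.78).

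Hip1r was most like Dusp15, Sirt2 and Cd82 (0.82, 0.81 and 0.80), and by deviations Olig1, Olig2 and Dnajb2 (0.72, 0.69 and 0.68). Olig1 and Olig2 are the transcription factors that define the oligodendrocyte lineage, and Sirt2 is abundant in myelinating cells. Against the summed log2 level of 5 oligodendrocyte markers, Hip1r gave r = 0.573 and rho = 0.451 over deviations. Their permutation p-values, adjusted over 72 relations, were 0.133 and 0.151, so neither passed. Those markers, summed, had means of 9261 CPM in wild-type and 8474 CPM in zQ175 mice, with overlapping ranges. Hip1r itself was higher in zQ175 mice. The part of oligodendrocyte content in the Hip1r values was not tested. F8a was most like Pcsk1n, Gga1 and Saraf (0.79, 0.79 and 0.76), and by deviations Arhgdia, Syngr3 and Gga1 (0.71, 0.70 and 0.68). Pacsin1 was most like Enc1, Fmnl1 and Acap3 (0.90, 0.88 and 0.88), and by deviations Enc1, R3hdm2 and Fmnl1 (0.91, 0.87 and 0.85). Zdhhc17 gave lower values, with Eapp, Cul3 and Stau2 (0.74, 0.74 and 0.72), and by deviations Stau2, Asns and Tpgs2 (0.74, 0.74 and 0.73). Optn was most like Nacc2, Gm15417 and Arhgef6 (0.79, 0.76 and 0.74), and by deviations Gm15417, Arhgef6 and Nefh (0.72, 0.72 and 0.71).

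Over deviations from the genotype means, the 28 pairs among the 8 genes had Pearson's r between -0.606 for Hap1 with Hip1 and 0.409 for Pacsin1 with Zdhhc17. Hip1r with Zdhhc17 gave -0.513, and Htt was most like Hip1, at 0.370.

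The positions of the 8 genes on GRCm38 are as follows in GENCODE M21. Htt (ENSMUSG00000029104) spans bases 34761740 to 34912534 of chromosome 5 on the plus strand, Hip1r (ENSMUSG00000000915) 123973628 to 124005558 on the plus strand and Hip1 (ENSMUSG00000039959) 135406531 to 135545120 on the minus strand of the same chromosome. Hap1 (ENSMUSG00000006930) spans 100347327 to 100356128 of chromosome 11, minus strand, and Zdhhc17 (ENSMUSG00000035798) 110941780 to 111010140 of chromosome 10, minus strand. Pacsin1 (ENSMUSG00000040276) spans 27655509 to 27711482 of chromosome 17, plus strand, Optn (ENSMUSG00000026672) 5020642 to 5064051 of chromosome 2, minus strand, and F8a (ENSMUSG00000078317) 73228291 to 73230795 of chromosome X, plus strand. Msantd1 overlaps Htt, Xlr5a surrounds F8a on the other strand, Gm20394 lies within Hap1 and Gm42731 within Hip1, none with a shared exonic base. Gm37939 shares 180 exonic bases with Hip1r, Mir7032 none, and 4930551O13Rik shares 73 with Optn on the opposite strand, but the reads counted on these were at most 39 over the 32 mice, and Vps37b had 14305 beside 59761 for Hip1r.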

How the data were processed

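Striatal polyA-selected RNA of 32 mice was sequenced as paired-end libraries. The authors deposited raw counts of reads per gene, and a second table that is named FPKM but whose columns each sum to 1000000, so its values were read as TPM, depth- and length-normalised by the authors. The submitters' processing notes name GRCm38.p6, and the aligner, counter and strand setting are not given in the sources used here. Ensembl IDs were paired with symbols through GENCODE M21.

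Counts were tested with edgeR 4.0.16 in R 4.3.3 (TMM, filterByExpr, robust quasi-likelihood fit) in 1 model of the 4 genotypes, with Benjamini-Hochberg adjustment over the 16610 genes kept of 54532. A call needed an adjusted p under 0.05 and a fold of at least 1.2. Totals of 12359347 to 25030335 counts per mouse left the precision of F8a limited mainly by counting. For Optn the spread exceeded counting error in wild-type mice (12.4% against 7.44%) and in zQ175 mice (10.7% against 6.97%). Every pair of mice within a group differed by more than sampling noise (their chi-square divided by its degrees of freedom was 4.15 or more). TPM were tested with limma 3.58.1 on log2(TPM + 0.1), where folds of low genes are understated. Exact permutation tests used log2 CPM and were two-sided. Adjusted p-values are edgeR's unless limma or DESeq2 1.42.0 is named. Scripts were tested on simulated data.

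The 8 genes and all gene lists were chosen with earlier results of these data known. From each partner list, up to 3 genes past both thresholds between zQ175 and wild-type mice were named by smallest adjusted p, together with any gene past both in a comparison of Msh3 genotypes, and for each of the 8 genes the 3 most correlated genes. Hgs has 2 IDs and was counted once, by the ID with more reads. Alternatives were DESeq2, other size factors and filters, TPM, sex in the model, males or females alone, the 2 groups alone, a replicate block, no fold threshold, leaving out each mouse, and 2 chosen after seeing the data, the long-transcript level as a covariate and leaving out 7 mice with at least 800 CPM of choroid plexus markers. A pair of genes from these lists is counted but not reported by name here.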

Additional observations from a re-analysis of the deposited data

Results flagged for a closer look

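A mouse stood apart from the other 7 of its group in 2 of the 32 sets of 8 values (8 genes in 4 genotypes), and chance flags about 1 set in 20, or 1.6 of 32. For Hap1, the Msh3-/- male 1 was at 176 CPM where the others ran from 105 to 125 CPM, a gap of 0.657 of the whole range of the group. For Zdhhc17, the zQ175 male 2 was at 151 CPM where the others ran from 135 to 142 CPM, a gap of 0.577 of the range.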

How the results depend on the processing

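Of the 8 genes, 1 passed both thresholds between zQ175 and wild-type mice. That count was 0 with limma on log2(TPM + 1), where Htt fell short of 1.2-fold, 2 in females alone and 2 without the mice with high choroid plexus markers, Optn being the second in both, and 1 to 2 when each mouse was left out in turn (2 without wild-type male 2). On the log2(TPM + 0.1) scale the count stayed at 1, but the gene was Optn, as Htt fell short there too (-0.26). Of the 14 alternatives with the fold threshold, fits without 1 mouse aside, 11 kept the Htt call. With no fold threshold it was 5, and it was 3 between zQ175:Msh3-/- and Msh3-/- mice and 6 between zQ175:Msh3-/- and wild-type mice, the last falling to 3 without wild-type female 2, wild-type male 4 or zQ175:Msh3-/- male 4. Over all genes, 1925 passed between zQ175 and wild-type mice (1180 in males alone, 4398 with no fold threshold), 1768 between zQ175:Msh3-/- and Msh3-/- mice (1067 in females alone, 4002 with no fold threshold) and 1992 between zQ175:Msh3-/- and wild-type mice (1244 in males alone, 4469 with no fold threshold). Between Msh3-/- and wild-type mice 3 passed in males alone. Between the sexes 28 passed, 18 with at least 10 reads in every mouse and 52 with no fold threshold. Analyses of 1 sex and those without a mouse rest on fewer mice, and the cause of the other changes was not tested.

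With the replicate block, using the number given within each sex, 1931, 1694 and 1901 genes passed in the 3 comparisons with the expanded allele, and the counts of the 8 genes did not change. The numbers were not taken to pair the mice: over 2000 genes, the 45 pairs of mice with the same number had correlations of their deviations down to -0.177 with a median of 0.0816, against 0.0850 for the 147 other pairs of the same sex. For the values of the 8 genes under the alternatives other than leaving out a mouse, 701 kept their side of the threshold and direction, 17 newly passed, 3 no longer passed, and 39 that had not passed changed sign. Most of the 17 passed only because the fold threshold was dropped. Depth limits Optn and F8a most, with at least 134 and 183 reads per mouse.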
